A study of Mus musculus with 4 samples.

Results

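The 8 genes described here encode the mouse inflammasome and its inflammatory caspases: the sensors Nlrp3, Nlrp1b and Naip2, the adaptor Pycard, the proteases Casp1 and Casp4, the pore protein Gsdmd and the cytokine Il18. They were chosen by symbol, and all 8 were found among the 27998 genes counted in every library. The study measured RNA in single nuclei of frozen kidneys from C57BL/6 mice at postnatal week 22, with droplet barcoding on the 10x Genomics Chromium platform. The losartan group had 2 libraries from kidneys of mice given losartan, an antihypertensive drug that blocks the AT1 angiotensin receptor. The untreated group had 2 libraries from kidneys of mice of the same strain and age that received no drug. No genetic change and no injury model is named for either group. The sources used here give neither dose, route and duration nor sex. No label states that the libraries of a group came from separate animals, so every p-value below measures the spread between libraries, which may be technical.

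Inflammasome sensors are cytosolic receptors that assemble into a platform after they meet microbial products or signs of cell damage. The platform, in most cases through the adaptor ASC that Pycard encodes, activates caspase-1, which matures interleukin-18 and cuts gasdermin D into the fragment that forms membrane pores. Caspase-11, the product of Casp4 in mice, is switched on by bacterial lipopolysaccharide in the cytosol and cuts gasdermin D directly. In the kidney the pathway is best known from macrophages and from injured tubules.

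Both caspase genes lie side by side on chromosome 9 of GRCm38, on the plus strand. Casp1 spans positions 5298517 to 5307265, and Casp4 begins 1562 bases further on, spanning 5308828 to 5336783. Casp12, a related caspase gene, follows after 8646 bases, with no other GENCODE gene between the 3. Nlrp3 (chromosome 11, 59541568 to 59566956, plus strand) and Nlrp1b (chromosome 11, 71153102 to 71230733, minus strand) share a chromosome. Naip2 lies on chromosome 13 (100144063 to 100202092, minus strand), Gsdmd on chromosome 15 (75862327 to 75867408, plus strand), Il18 on chromosome 9 (50554827 to 50581840, plus strand) and Pycard on chromosome 7 (127989708 to 127993867, minus strand). All are protein-coding, and a nuclear UMI can come from an exon or an intron. Il18 overlaps Bco2 and Tex12 on the other strand, Pycard overlaps Gm45205 on the other strand, and Naip2 overlaps the pseudogene Gm18413. Nlrp1b and Naip2 also have close paralogs, so the counts of these 4 genes are less certain than those of the rest.

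The promoter windows of the pair of caspase genes are shown because of the order of the libraries for Casp4. Both losartan libraries had less Casp4 than both untreated libraries in 6 of the 7 classes of nuclei where it was tested. In the 7 classes 17.5% to 23.7% of all genes had that order. The window of Naip2 is shown because its order between treatments was opposite in endothelium and proximal tubule. Of all genes, 17.5% were lower in both losartan libraries in endothelium and 21.6% higher in both in proximal tubule. Each window runs from 250 bases before to 50 bases after a RefSeq start on GRCm38.p6, read 5′ to 3′ on the gene's strand, with motif matches in capitals. The Casp4 window lies at chr9:5308599-5308898 (plus strand), the Casp1 window at chr9:5298267-5298566 (plus strand) and the Naip2 window at chr13:100202073-100202372 (minus strand).
Casp4: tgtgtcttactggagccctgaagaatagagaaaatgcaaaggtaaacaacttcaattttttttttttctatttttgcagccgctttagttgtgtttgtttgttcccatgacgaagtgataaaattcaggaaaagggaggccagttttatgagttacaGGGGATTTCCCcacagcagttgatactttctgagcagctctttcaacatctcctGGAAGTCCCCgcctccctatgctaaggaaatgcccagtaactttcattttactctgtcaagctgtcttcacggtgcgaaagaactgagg
Casp1: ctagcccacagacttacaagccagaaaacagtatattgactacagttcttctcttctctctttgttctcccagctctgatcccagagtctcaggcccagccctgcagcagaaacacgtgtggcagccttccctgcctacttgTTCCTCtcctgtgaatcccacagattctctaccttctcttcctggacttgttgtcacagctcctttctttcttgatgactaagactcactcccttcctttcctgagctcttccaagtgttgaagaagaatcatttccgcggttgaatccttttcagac
Naip2: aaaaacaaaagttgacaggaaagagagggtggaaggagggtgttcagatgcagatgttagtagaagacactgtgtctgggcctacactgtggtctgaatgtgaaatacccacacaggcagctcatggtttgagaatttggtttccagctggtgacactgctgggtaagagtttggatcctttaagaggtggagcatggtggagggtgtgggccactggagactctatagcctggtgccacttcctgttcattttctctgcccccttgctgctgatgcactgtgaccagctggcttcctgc

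The capitals in the Casp4 window are overlapping matches to the NF-kappaB consensus that begin at -93 and -92, and another match at -39, counted from the start site. The capitals in the Casp1 window are a GAGGAA core of the ETS family on the opposite strand at -108, and the Naip2 window held no match. In all, 10 windows of 7 of the genes were searched on both strands. The NF-kappaB consensus is present in 8.49% of 32544 mouse promoter windows of this length, and among the 7 genes it was found for Casp4 and Nlrp3. It was added after the Casp4 sequence had been read, because a stricter spelling (GGGA, any 2 bases, TTCC), held by 1.47% of windows, matched none of the 10. The GAGGAA core is present in 28.1% of windows and was found for Casp1, Nlrp3, Nlrp1b and Pycard. The interferon-stimulated response element core (GAAA, any 2 bases, GAAA, in 3.45% of windows), the gamma-interferon activation site TTCNNNGAA (8.33%) and the AP-1 site TGANTCA (7.79%) had no match in any of the 10. A match is a string of letters, and no binding was measured.

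The libraries held 9854 and 10342 barcodes with 58820323 and 59078762 UMIs (unique molecular identifiers, each 1 captured RNA molecule) for losartan, and 9326 and 10132 barcodes with 42290414 and 54971880 UMIs for untreated. After filtering, 35935 of 39654 nuclei remained, and library pairs shared 21 to 29 barcodes. Nuclei were grouped by clusters and named from canonical markers, so a class name below means nuclei that resemble that cell type. The 3 of the 8 genes that were among the variable genes were left out of the clustering. The mix of classes differed between libraries: proximal tubule gave 69.1% and 58.2% of UMIs in losartan, against 43.9% and 33.7% in untreated libraries. Myeloid nuclei gave 0.75% and 0.80% in losartan, against 1.96% and 2.87% in untreated libraries. Losartan library 1 stood apart because it supplied 1593 of 1621 nuclei in a single cluster of the proximal tubule and only 25 injured proximal tubule nuclei. Another proximal tubule cluster of 1854 nuclei held 15 and 128 losartan nuclei, against 835 and 876 untreated nuclei. The cluster of principal cells held 114 and 174 losartan nuclei, against 4 and 272 untreated nuclei.

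Levels are given in CPM, the UMIs of a gene per 1000000 UMIs of the class, scaled between libraries. They are not per length, so they compare classes and libraries for 1 gene and not one gene with another. Because classes are clusters of the same nuclei, differences between classes are described without a test. Of the sensors, Nlrp3 and Nlrp1b had their level mostly in 1 class and Naip2 in 3. Nlrp3, which responds to membrane damage and potassium loss, averaged 32.9 ± 9.80 CPM in myeloid nuclei (SD over the 4 libraries, as for the other means by class), from 100 UMIs, and 0.69 CPM in proximal tubule. Its next class by level, urothelium, rested on 2 UMIs and overlapped the myeloid range. Nlrp1b averaged 396 ± 42.9 CPM in myeloid nuclei and 29.6 ± 25.6 CPM in lymphocytes, the next class, and the ranges of the libraries did not overlap. A Nlrp1b UMI was seen in 55.2% and 51.7% of myeloid nuclei in losartan and in 54.1% and 61.1% in untreated libraries. The same share in proximal tubule nuclei, which serve as the background, was 1.88% and 2.61% in losartan, against 2.80% and 2.12% in untreated libraries. Myeloid nuclei had a median of 3307 and 2906 UMIs in losartan and 2449.5 and 2993 in untreated libraries, and proximal tubule nuclei were deeper, at 5301 and 5139 against 4184 and 5786. Nlrp1b was also 1 of the 10 leading genes of the larger myeloid cluster, although it took no part in the clustering. Naip2, the receptor for the inner rod of bacterial secretion systems, was highest in endothelium (85.0 ± 27.5 CPM) and myeloid nuclei (75.7 ± 29.4 CPM). These overlapped each other, and lymphocytes (34.2 ± 9.87 CPM, from 35 UMIs) overlapped the myeloid range. Urothelium, next at 10.6 ± 3.92 CPM, lay below the range of lymphocytes. For every gene the lymphocyte level rests on few nuclei, 8 and 16 in losartan, against 50 and 237 in untreated libraries. Very few UMIs thus set its losartan values.

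Pycard was spread over immune and epithelial classes. Its level was 60.0 ± 27.1 CPM in lymphocytes, from 64 UMIs and with only 8 and 16 nuclei in the losartan libraries. Urothelium, at 51.8 ± 8.78 CPM, overlapped lymphocytes. Connecting tubule and principal cells, at 25.1 ± 6.63 CPM, lay below the urothelial range. Myeloid nuclei (21.9 ± 7.04 CPM) and distal convoluted tubule (19.9 ± 2.84 CPM) followed with overlapping ranges. Casp4 averaged 119 ± 42.6 CPM in fibroblasts, followed by lymphocytes at 90.1 ± 14.0, mural and mesangial nuclei at 65.6 ± 34.3, myeloid nuclei at 65.2 ± 19.5 and endothelium at 47.6 ± 10.3 CPM, each overlapping the class above it. Casp1 averaged 19.7 ± 22.9 CPM in lymphocytes, from 26 UMIs, and 16.0 ± 6.38 CPM in myeloid nuclei, from 53 UMIs, with overlapping ranges. Of the lymphocyte UMIs, 25 came from untreated library 2. The remaining UMI, in losartan library 1 with its 8 lymphocyte nuclei, gave 43.2 CPM, the highest of the 4 libraries. The rank of lymphocytes above myeloid nuclei thus rests on that UMI. Endothelium followed at 7.79 ± 1.68 CPM, below the myeloid range, and fibroblasts at 2.77 ± 1.11 CPM. Gsdmd averaged 40.3 ± 5.05 CPM in myeloid nuclei and 18.7 ± 3.59 CPM in endothelium, and these ranges did not overlap. Il18 averaged 12.9 ± 2.53 CPM in podocytes, the filter cells of the glomerulus, from 28 UMIs, and 11.4 ± 7.77 CPM in myeloid nuclei, where losartan library 1 had 0 UMIs.

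**Figure D1:**
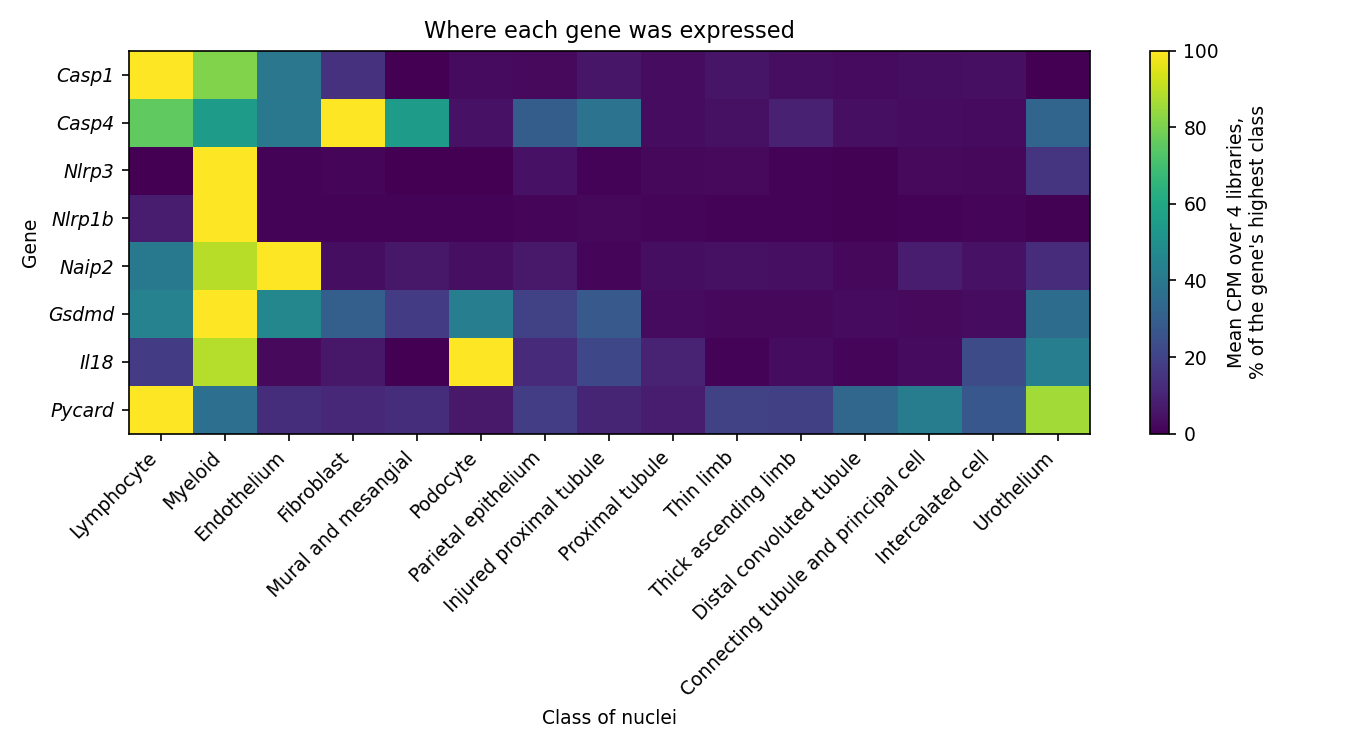
Mean level of each gene (rows) in 15 classes of nuclei (columns), over 4 libraries, as a percent of the gene's own highest class. Nlrp3 and Nlrp1b stand out in the myeloid column, with 15.3% and 7.47% of that level in the next class, while Pycard reaches 86.3% of its highest level in urothelium and 41.8% in connecting tubule and principal cells. Lymphocytes, the highest class of Pycard and Casp1, held only 8 and 16 nuclei in the losartan libraries.

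The first comparison asked whether the genes differed between treatments over the whole kidney. All 8 were lower in both losartan libraries than in both untreated libraries, a pattern that 29.1% of the 18407 genes tested also showed. The median log2 change of the 8 genes was -0.77, and that of all genes tested -0.01. Casp4 had 8.04 and 15.5 CPM in losartan, against 24.9 and 31.6 CPM in untreated libraries (log2 change -1.26 ± 0.333 SE, adjusted p = 0.147, edgeR's quasi-likelihood test with Benjamini-Hochberg adjustment, which gave the other adjusted p-values too). Casp1 had 1.03 and 0.91 CPM in losartan, against 1.73 and 2.59 CPM in untreated libraries (log2 change -1.16 ± 0.308). The untreated libraries were higher for both proteases without overlap, and untreated library 2 was the higher of the pair.

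Nlrp1b had 7.74 and 8.86 CPM in losartan, against 14.1 and 14.7 CPM in untreated libraries (log2 change -0.80 ± 0.137). Naip2 had 5.63 and 6.80 CPM in losartan, against 10.3 and 12.8 CPM in untreated libraries (log2 change -0.89 ± 0.187). Nlrp3 had 0.79 and 0.93 CPM in losartan, against 1.60 and 1.28 CPM in untreated libraries (log2 change -0.74 ± 0.281). All 3 sensors were thus lower in each losartan library than in either untreated library. Gsdmd had 2.87 and 3.67 CPM in losartan, against 5.06 and 5.61 CPM in untreated libraries (log2 change -0.71 ± 0.210). The smallest differences were those of Il18 (log2 change -0.50 ± 0.238) and of Pycard (log2 change -0.49 ± 0.243). For Pycard 3 libraries lay close together, at 8.28 and 7.42 CPM in losartan and 8.61 CPM in untreated library 1, and untreated library 2 was higher at 13.3 CPM.

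The edgeR test called 0 of the 8 genes in the whole kidney, where it called 0% of all genes, and the adjusted p-values of the 8 ran between 0.112 and 0.311. At an unadjusted p under 0.05 it held 6 of the 8 and 21.9% of all genes. DESeq2 called 8.81% of all genes here and 3 of the 8, namely Casp4 (adjusted p = 0.00409), Naip2 (0.00682) and Nlrp1b (0.00251). An exact two-sided permutation test of 2 against 2 libraries cannot go below p = 0.333.

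A sum over the whole kidney cannot tell fewer nuclei of a type from less RNA per nucleus. The genes were therefore summed again with each class held at its mean share of UMIs over the 4 libraries, a step added after the data were seen, with the unnamed nuclei as 1 of 16 classes and CPM not scaled between libraries. On this scale Casp4 stayed lower, with 13.1 and 16.9 CPM in losartan, against 23.1 and 25.3 CPM in untreated libraries, a log2 ratio of means of -0.69 against -1.41 before. Naip2 had a log2 ratio of -0.39 against -1.04 before, Casp1 -0.41 against -1.31 and Il18 -0.43 against -0.66. These 3 also did not overlap. For Casp1 the gap was narrow, at 1.61 and 1.03 CPM in losartan, against 1.62 and 1.89 CPM in untreated libraries. The Nlrp1b ratio was -0.07 with the fixed mix, against -0.95 before, and the libraries overlapped. Gsdmd had 4.25 and 4.47 CPM in losartan and 4.55 and 4.16 CPM in untreated libraries with the fixed mix, a log2 ratio of 0.00, against -0.85 before. Nlrp3 (-0.33 against -0.89) and Pycard (-0.25 against -0.65) also overlapped. These ratios have no test, and the share of all genes without overlap on this scale was not computed.

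**Figure D2:**
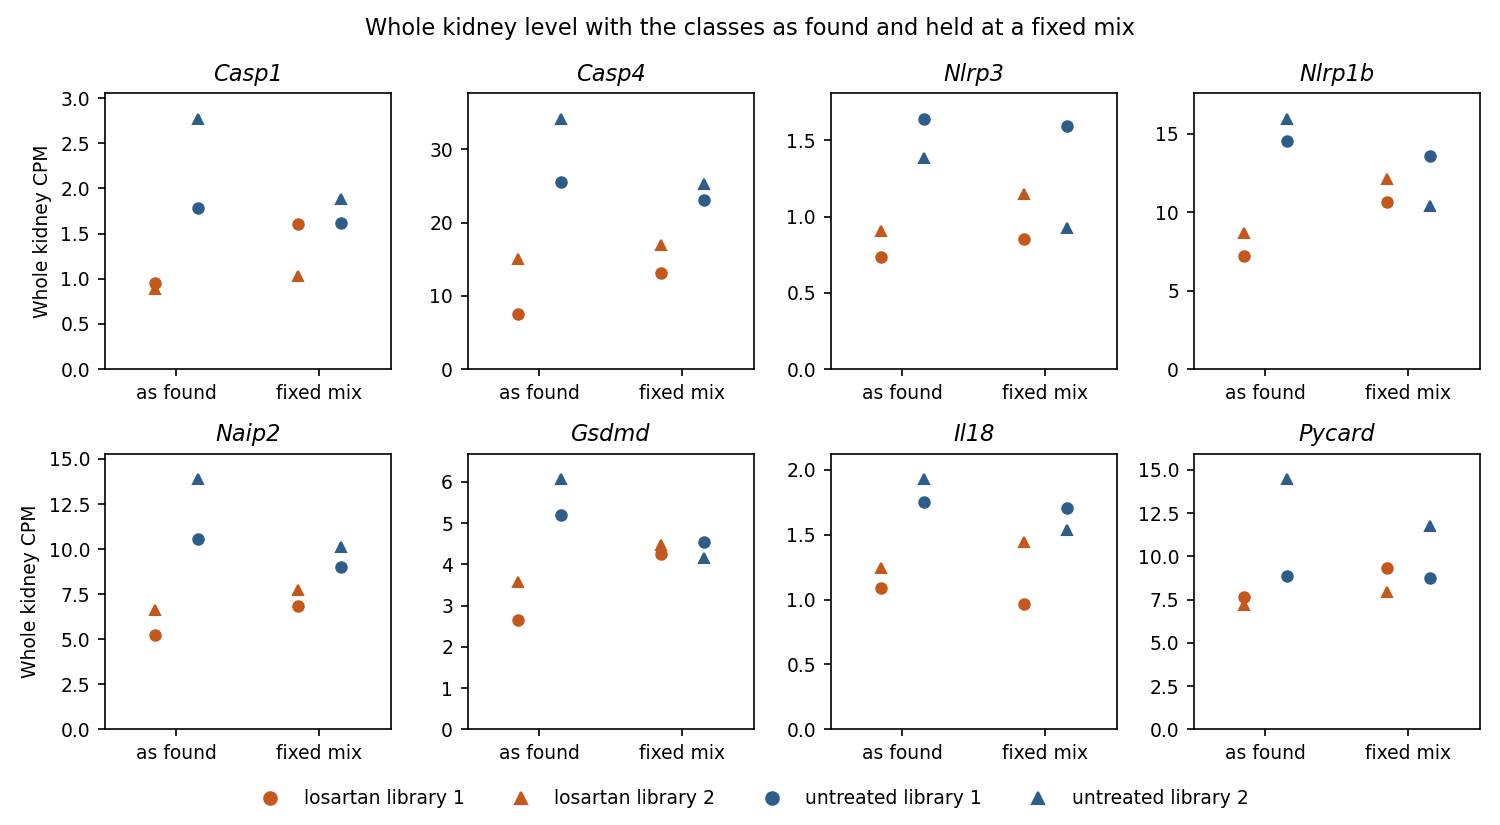
Whole kidney level in CPM (not scaled between libraries) of each gene in the 4 libraries, with the classes as found (left in each panel) and with every class held at its mean share of UMIs (right in each panel), losartan left of untreated. The losartan and untreated libraries are apart on the left in all 8 panels and overlap on the right for Nlrp3, Nlrp1b, Gsdmd and Pycard.

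Inside classes the order of the libraries for Casp4 was mostly the same, but no difference passed the test. Among the 7 single classes in which it passed the filter on low counts, it was lower in both losartan libraries than in both untreated libraries in 6, and in the injured proximal tubule the libraries overlapped. These 6 include proximal tubule, which serves below as the background for Casp4, so a level above free RNA was not shown for it. With edgeR, Casp4 was called in 0 of the 7. The share of all genes with that order was 19.3% in fibroblasts, 17.5% in endothelium, 19.9% in myeloid nuclei, 19.7% in thick ascending limb, 20.4% in distal convoluted tubule, 23.7% in proximal tubule and 21.2% in injured proximal tubule. At an unadjusted p under 0.05 Casp4 was held in 4 of the 7, namely fibroblasts, myeloid nuclei, thick ascending limb and distal convoluted tubule. In these 4 classes 8.7%, 8.35%, 10.2% and 9.15% of all genes were held, against 5.52% in endothelium, 11.8% in proximal tubule and 4.83% in injured proximal tubule. In fibroblasts, the class of its highest level, Casp4 had 74.9 and 94.0 CPM in losartan, against 137 and 169 CPM in untreated libraries, from 129 and 385 UMIs against 393 and 766. The log2 change was -0.85 ± 0.172 (edgeR adjusted p = 0.182). In losartan 17.2% and 24.2% of fibroblast nuclei carried a Casp4 UMI, against 32.4% and 40.04% in untreated libraries. Thinned to 1000 UMIs a nucleus, these shares were 6.09% and 8.02% in losartan, against 13.1% and 15.1% in untreated libraries. Both fibroblast clusters showed the order: the larger had 71.7 and 91.6 CPM in losartan, against 140.4 and 178 CPM in untreated libraries, and the smaller had 92.9 and 112 CPM against 117 and 151 CPM (not scaled between libraries).

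The fibroblast difference did not pass the threshold, and it became a call without untreated library 1 (log2 change -0.996, adjusted p = 0.00292, in a fit that called 4.56% of genes) but not without untreated library 2, losartan library 1 or losartan library 2 (adjusted p = 0.155, 0.752 and 0.359 in that order). Without the filter on low counts it was a call (adjusted p = 6.32e-05, with 2.9% of genes called), and DESeq2 gave an adjusted p of 0.0631 and called 0.649% of genes. The fibroblast class called 0.0229% of 13087 genes. The summed level of the 7 fibroblast markers was itself 1382 and 1643 CPM in losartan, against 1651 and 2277 CPM in untreated libraries, with 0 markers at 0. The 34 immune markers summed to 252 and 241 CPM in fibroblasts in losartan, against 337 and 337 CPM in untreated libraries, with 1 to 8 of them at 0 in a library. The part of these markers in the result was not tested.

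In the thick ascending limb, the salt-reabsorbing segment after the loop's bend, Casp4 had 5.47 and 3.18 CPM in losartan, against 18.5 and 17.2 CPM in untreated libraries. These levels rested on 20 and 14 UMIs in losartan, against 85 and 78 UMIs in untreated libraries. The log2 change was -2.06 ± 0.307 (edgeR adjusted p = 0.0536), just short of the threshold of 0.05. This class called 0.255% of 13353 genes. DESeq2 called Casp4 here (adjusted p = 0.00491) with 0.974% of genes. Without untreated library 1 edgeR called it too (adjusted p = 9.88e-05, with 6.43% of genes called), as it did without untreated library 2 (0.000945, with 2.58%). It did not call it without losartan library 1 (0.0813) or losartan library 2 (0.118), or without the filter on low counts (0.276). A Casp4 UMI was seen in 1.90% and 1.18% of these nuclei in losartan, against 4.96% and 4.70% in untreated libraries. In proximal tubule nuclei, the class used as background, the shares were 1.31% and 1.96% in losartan, against 2.51% and 2.30% in untreated libraries. The thick ascending limb share was thus above the background in losartan library 1 and in both untreated libraries, and below it in losartan library 2, although its nuclei were shallower in each library (a median of 3536 and 3414 UMIs in losartan, against 3166 and 4498 in untreated libraries). Thinned to 1000 UMIs a nucleus, the thick ascending limb shares were 0.317% and 0.254% in losartan, against 2.24% and 1.34% in untreated libraries, and those of proximal tubule 0.137% and 0.263% in losartan, against 0.554% and 0.587%.

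Of the 3 clusters of the thick ascending limb, the larger pair held Casp4 UMIs in each untreated library. The cluster of 2401 nuclei had 0 and 7 UMIs in losartan, against 39 and 20 UMIs in untreated libraries. The cluster of 1747 nuclei had 13 and 6 UMIs in losartan, against 46 and 58 UMIs in untreated libraries. In both, each untreated library was above each losartan library. The remaining cluster of 123 nuclei was mostly from losartan and held 7 and 1 UMIs there, against 0 and 0 in its 6 and 3 untreated nuclei. The 7 fibroblast markers summed to 44.0 and 45.1 CPM in thick ascending limb nuclei in losartan, against 48.0 and 49.5 CPM in untreated libraries, with at most 1 marker at 0 in a library. The 34 immune markers summed to 288 and 308 CPM in losartan, against 393 and 344 CPM, with 1 to 4 at 0 in a library. The part of these markers in the result was not tested. Without the 10% of nuclei richest in markers of the other groups, the log2 change was -2.29 (edgeR adjusted p = 0.0357, with 0.299% of genes called).

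In the distal convoluted tubule Casp4 had 1.47 and 1.86 CPM in losartan, against 8.11 and 8.77 CPM in untreated libraries, from 4 and 5 UMIs against 23 and 29. The log2 change was -2.32 ± 0.419 (edgeR adjusted p = 0.107), in a class that called 0.147% of 12248 genes. The 34 immune markers summed to 253 and 279 CPM in this class in losartan, against 396 and 360 CPM in untreated libraries, with 3 to 7 at 0 in a library. The 7 fibroblast markers summed to 36.2 and 41.7 CPM in losartan, against 35.8 and 41.6 CPM. The part of these markers in the result was not tested. In myeloid nuclei Casp4 had 55.8 and 42.4 CPM in losartan, against 83.9 and 78.8 CPM in untreated libraries (log2 change -0.73 ± 0.294, edgeR adjusted p = 0.598). In endothelium it had 35.5 and 42.9 CPM in losartan, against 57.8 and 54.4 CPM in untreated libraries (log2 change -0.50 ± 0.217, edgeR adjusted p = 0.914). In distal convoluted tubule, myeloid nuclei and endothelium the losartan libraries lay below the untreated ones. In proximal tubule the levels were 2.43 and 3.52 CPM in losartan, against 5.29 and 4.09 CPM in untreated libraries (log2 change -0.66 ± 0.290, edgeR adjusted p = 0.461). The distal convoluted tubule was thus below this background class in both losartan libraries and above it in both untreated libraries. In losartan a Casp4 level above free RNA was therefore not shown for the distal convoluted tubule, where 3 of 648 and 5 of 641 nuclei had a UMI. Of the 8 proximal tubule clusters with nuclei of every library, the losartan libraries were below the untreated ones for Casp4 in 4, above in 1 and overlapping in 3. The injured proximal tubule went the other way, with 36.4 and 63.1 CPM in losartan and 34.1 and 46.8 CPM in untreated libraries, and losartan library 1 gave only 4 UMIs there. Without losartan library 2 its log2 change was -0.23, against 0.47 with it.

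**Figure D3:**
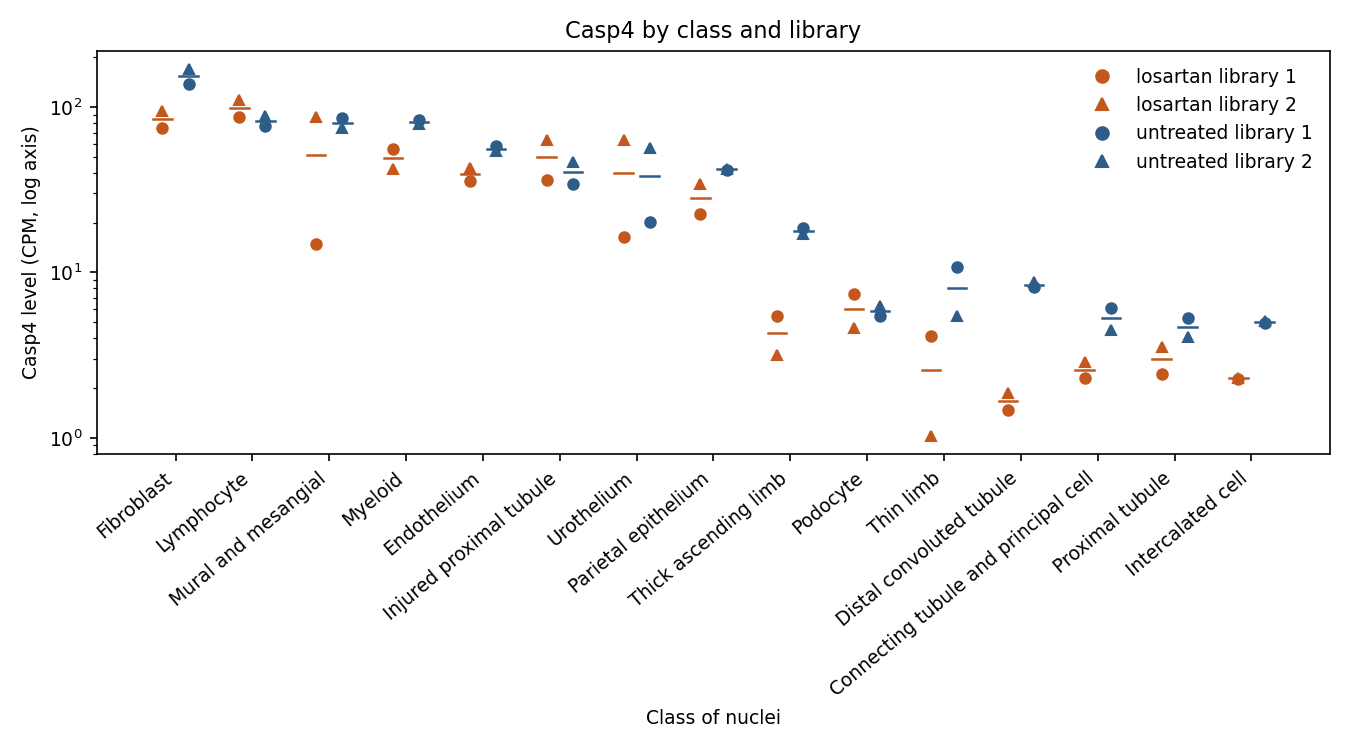
Casp4 level in CPM (log axis) in 15 classes of nuclei, ordered by mean level, with losartan libraries left of untreated libraries and a bar at each group mean (n = 2). The thick ascending limb and the distal convoluted tubule show the widest gaps, at 5.47 and 3.18 against 18.5 and 17.2 CPM and at 1.47 and 1.86 against 8.11 and 8.77 CPM. The distal convoluted tubule values rest on 4 and 5 UMIs in losartan, against 23 and 29. In losartan they lie below those of proximal tubule, the class used as background.

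Whether the Casp4 difference itself varied between groups was tested as an interaction, with the library as a block. Its log2 change in tubule minus that in fibroblasts was -0.62 ± 0.184 (adjusted p = 0.256), tubule minus endothelium -0.95 ± 0.296 (adjusted p = 0.232), tubule minus immune -0.85 ± 0.389 (adjusted p = 0.558) and thick ascending limb minus proximal tubule -1.41 ± 0.426 (adjusted p = 0.382). None passed, and edgeR called 0.434%, 0.576%, 0.0468% and 0.0127% of genes in these 4 tests. Without untreated library 1 the last difference was -1.60 (adjusted p = 0.0450) and passed, in a fit where 4.74% of genes passed. All 4 were held at an unadjusted p under 0.05, as were 9.01%, 7.55%, 8.66% and 9.35% of genes in that order.

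Naip2 was the only member whose losartan difference passed a test between groups. In endothelium it had 62.4 and 60.0 CPM in losartan, against 107.9 and 109.6 CPM in untreated libraries, from 51 and 95 UMIs against 198 and 286. In the proximal tubule it had 3.64 and 3.70 CPM in losartan, against 2.07 and 2.77 CPM in untreated libraries, from 123 and 106 UMIs against 34 and 44. So each losartan library was below both untreated libraries in endothelium and above both in proximal tubule, an order that 21.6% of genes showed in proximal tubule and 25.2% in the tubule as a whole. The log2 change was -0.83 ± 0.178 in endothelium (edgeR adjusted p = 0.608) and 0.60 ± 0.256 in proximal tubule (edgeR adjusted p = 0.450). Naip2 in thick ascending limb nuclei had 4.65 and 3.41 CPM in losartan, against 2.61 and 3.30 CPM in untreated libraries (log2 change 0.43 ± 0.408). Within the proximal tubule the order did not hold cluster by cluster. Of its 8 clusters with nuclei of every library, the losartan libraries were above the untreated ones for Naip2 in 1, below in 3 and overlapping in 4, on 0 to 44 UMIs a library. With the pair of most unevenly shared clusters left out, a step added after the data were seen, the proximal tubule level was 3.89 and 3.69 CPM in losartan, against 2.58 and 3.11 CPM in untreated libraries (not scaled between libraries). In myeloid nuclei, with 39.8 and 77.3 CPM in losartan and 74.1 and 112 CPM in untreated libraries, the libraries overlapped.

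The log2 change of Naip2 in tubule minus that in endothelium was 1.25 ± 0.263 (edgeR adjusted p = 0.0164), in a test that called 0.576% of 16842 genes. Leaving out any 1 library ended the call. With losartan library 1 left out the difference was 1.30 (adjusted p = 0.105), and with losartan library 2 left out 1.23 (0.134). With untreated library 1 left out it was 1.16 (0.103), and with untreated library 2 left out 1.43 (0.0713). Within endothelium the difference became a call without untreated library 1 (log2 change -0.85, adjusted p = 0.0259, with 2.97% of genes called) and without the filter on low counts (adjusted p = 0.0269, with 0.919%). It was no call without untreated library 2 (0.0863), losartan library 1 (0.99992) or losartan library 2 (0.832), or by DESeq2 (0.971). A Naip2 UMI was seen in 14.3% and 14.1% of endothelial nuclei in losartan, against 22.0% and 26.9% in untreated libraries. The share in fibroblasts, taken as background, was 1.05% and 1.43% in losartan, against 0.80% and 1.75% in untreated libraries. In proximal tubule it was 2.12% and 2.22% in losartan, against 1.01% and 1.90% in untreated libraries, in nuclei deeper than fibroblasts. Thinned to 1000 UMIs a nucleus, the proximal tubule shares were 0.392% and 0.287% in losartan, against 0.0651% and 0.0903% in untreated libraries, and the fibroblast shares were 0% and 0.330% against 0.266% and 0.411%. The thinned proximal tubule share was below the fibroblast share in 3 of 4 libraries, so a proximal tubule level above free RNA was not shown.

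Markers of other cells moved with both Naip2 differences. In endothelium the 34 immune markers summed to 238 and 267 CPM in losartan, against 337 and 349 CPM in untreated libraries, with 3 to 12 of them at 0 in a library. The 13 endothelial markers summed to 10694 and 11419 CPM there in losartan, against 10684 and 11773 CPM in untreated libraries. In proximal tubule nuclei the 13 endothelial markers summed to 313 and 294 CPM in losartan, against 212 and 142 CPM in untreated libraries, with 0 at 0. Without the 10% of nuclei richest in markers of the other groups, the log2 change of Naip2 was -0.77 in endothelium, 0.58 in proximal tubule and 0.17 in tubule as a whole, where it was 0.39 with all nuclei. The part of these markers in the results was not tested further.

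**Figure D4:**
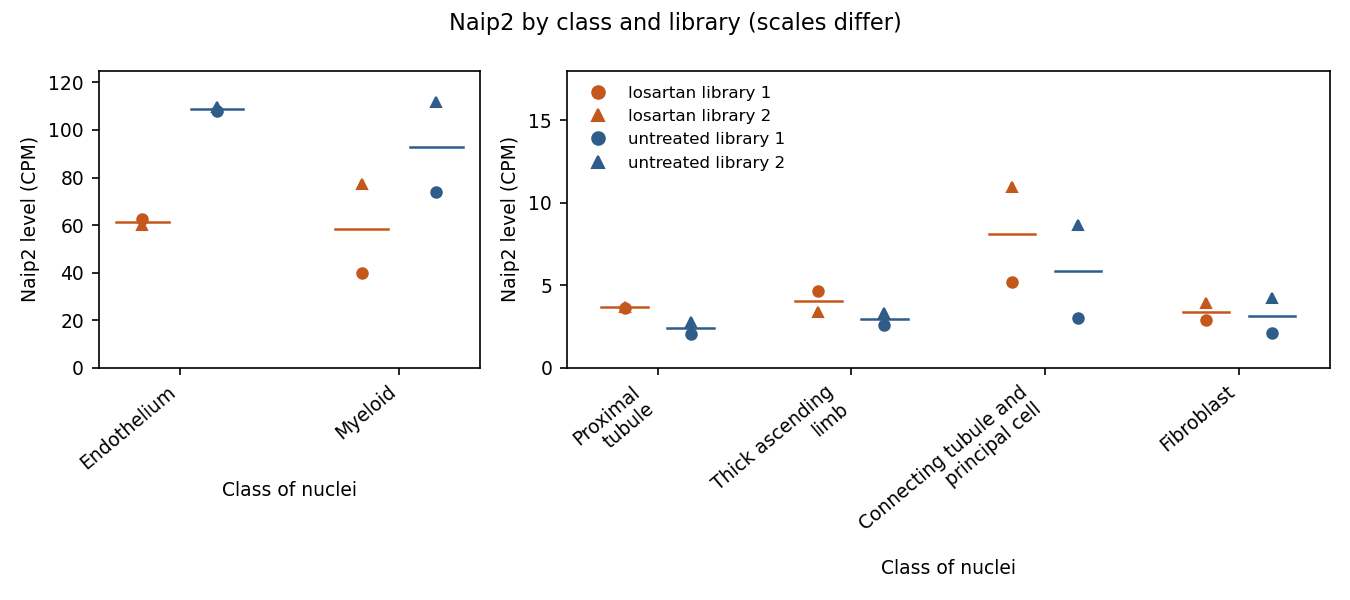
Naip2 level in CPM in 6 classes of nuclei, losartan libraries left of untreated libraries, with a bar at each group mean (n = 2). Endothelium shows 62.4 and 60.0 against 107.9 and 109.6 CPM, while proximal tubule, on the smaller scale at right, shows 3.64 and 3.70 against 2.07 and 2.77 CPM.

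In the immune group as a whole, 6 of the 8 genes passed the filter, and the edgeR test called 0 of them, as it called 0% of 9271 genes. None had an unadjusted p under 0.05, against 7.1% of all genes, and DESeq2 called none, against 0.0216%. Nlrp1b had 321 and 398 CPM in losartan, against 338 and 271 CPM in untreated libraries (log2 change 0.24 ± 0.224). The immune group pools myeloid nuclei and lymphocytes. Lymphocytes were 8 and 16 of its 113 and 132 nuclei in losartan, against 50 and 237 of 294 and 615 in untreated libraries. Values of this group cannot tell a different mix from a different level per nucleus. Within myeloid nuclei Nlrp1b had 339.9 and 441 CPM in losartan, against 389.9 and 413 CPM in untreated libraries, and the libraries overlapped (log2 change -0.04 ± 0.216). Nlrp3 had 18.6 and 34.9 CPM in myeloid nuclei in losartan, against 40.5 and 37.5 CPM in untreated libraries (log2 change -0.53 ± 0.403, adjusted p = 0.758), from 7 and 14 UMIs against 29 and 50. The libraries overlapped for Gsdmd, with 34.5 and 44.9 CPM in losartan and 37.7 and 44.3 CPM in untreated libraries. The edgeR test called 0 of the 6 genes tested in myeloid nuclei and 0% of 8672 genes. At an unadjusted p under 0.05 it held 1 of the 6, Casp4, against 8.35% of all genes. DESeq2 called none of the 6, against 0.0346% of all genes.

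The nuclei named myeloid were not equally rich in their own markers. The 34 immune markers summed to 3855 and 4595 CPM in losartan, against 5443 and 8579 CPM in untreated libraries, with 2 to 7 at 0 in a library. The 7 fibroblast markers summed to 422 and 372 CPM in losartan, against 363 and 146 CPM in untreated libraries. The 13 endothelial markers summed to 1714 and 1752 CPM in losartan, against 1146 and 772 CPM in untreated libraries. The part of these differences in the myeloid values was not tested.

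In fibroblasts 6 of the 8 genes passed the filter. Both losartan libraries were below both untreated libraries for 5 of them, Casp1, Casp4, Nlrp1b, Gsdmd and Pycard, against 19.3% of all genes tested. Gsdmd had 11.0 and 10.0 CPM in losartan, against 14.7 and 13.1 CPM in untreated libraries (log2 change -0.41 ± 0.272, adjusted p = 0.762). Casp1 rested on 5 and 5 UMIs in losartan, against 11 and 14 in untreated libraries (log2 change -0.92 ± 0.589, adjusted p = 0.751). The edgeR test called 0 of the 6, against 0.0229% of all genes, and DESeq2 called 0, against 0.649%. At an unadjusted p under 0.05 edgeR held 1 of the 6, Casp4, against 8.7% of all genes. In endothelium 5 of the 8 passed, both losartan libraries were below for 2, Casp4 and Naip2, against 17.5% of all genes, and edgeR and DESeq2 each called 0 of the 5. The share of genes called there was 0.00888% by edgeR and 0.0622% by DESeq2. At an unadjusted p under 0.05 edgeR held 1 of the 5, Naip2, against 5.52% of all genes. Pycard had 12.2 and 7.58 CPM in endothelium in losartan and 4.36 and 7.67 CPM in untreated libraries, which overlap (log2 change 0.60 ± 0.50).

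In the tubule all 8 genes passed the filter. Both losartan libraries were below both untreated libraries for 5 of them, Casp1, Casp4, Gsdmd, Il18 and Pycard, against 28.3% of all genes. The Casp4 level was 2.80 and 4.18 CPM in losartan, against 9.47 and 10.1 CPM in untreated libraries (log2 change -1.49 ± 0.236, edgeR adjusted p = 0.0943). Casp1 had 0.40 and 0.53 CPM in losartan, against 0.85 and 0.92 CPM in untreated libraries (log2 change -0.93 ± 0.318, edgeR adjusted p = 0.209). For each of these proteases the lowest untreated library exceeded the highest losartan library. Pycard had 7.39 and 6.67 CPM in losartan, against 8.35 and 11.9 CPM in untreated libraries (log2 change -0.53 ± 0.214), and within connecting tubule and principal cells 22.5 and 17.2 CPM in losartan, against 28.6 and 32.2 CPM in untreated libraries (log2 change -0.63 ± 0.257, edgeR adjusted p = 0.881). In the connecting tubule cluster alone, without the unevenly shared principal cells, Pycard had 27.4 and 18.5 CPM in losartan, against 29.3 and 35.2 CPM in untreated libraries (not scaled between libraries). Nlrp3 (log2 change 0.07 ± 0.473) and Nlrp1b (0.02 ± 0.313) overlapped. The edgeR test called 0 of the 8 in tubule and 0% of 17543 genes, 2 of the 8, Casp1 and Casp4, had an unadjusted p under 0.05, against 20.1% of all genes, and DESeq2 called 1, Casp4 (adjusted p = 3.97e-05), against 7.51% of all genes.

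The tubule sum mixes classes whose shares differed. The injured proximal tubule, where Casp4 averaged 45.1 CPM, gave 0.21% and 1.18% of UMIs in losartan, against 5.02% and 6.85% in untreated libraries. The intact proximal tubule, where Casp4 averaged 3.83 CPM, gave the larger share in losartan.

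**Figure D5:**
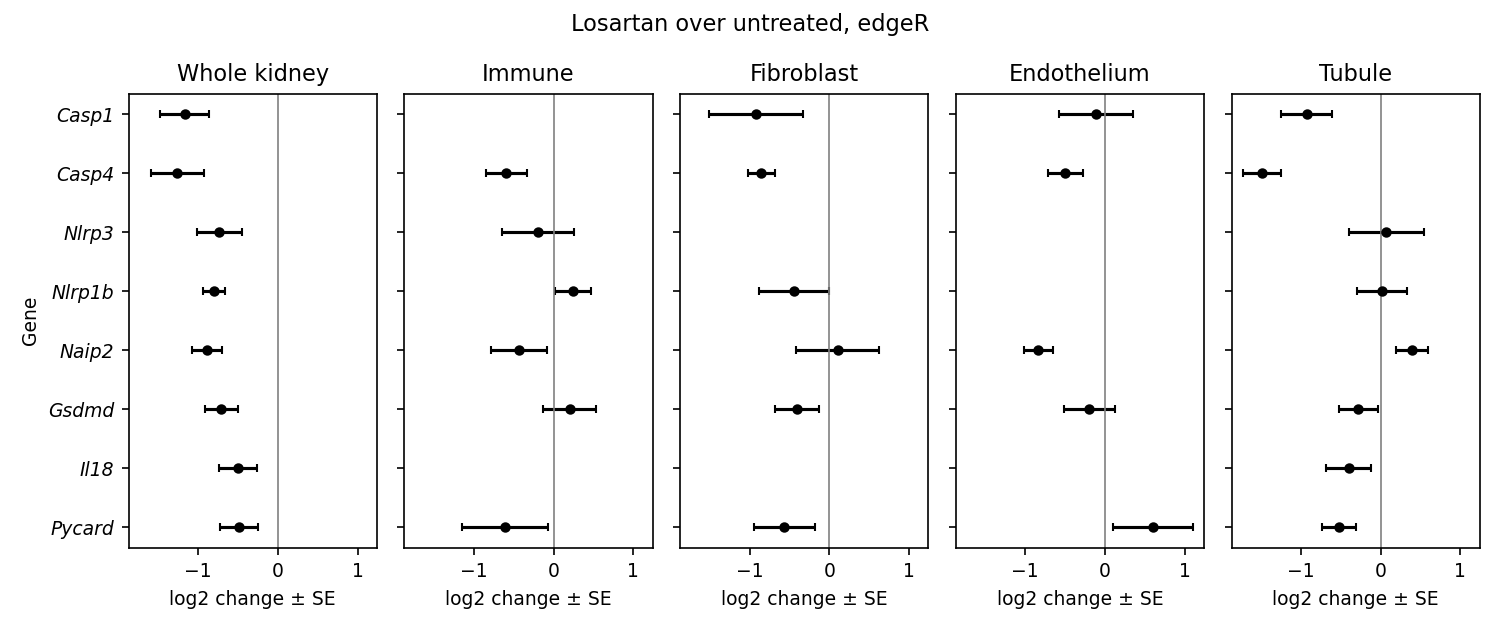
Log2 change, losartan over untreated, with its SE from edgeR (horizontal bars), of each gene in the whole kidney and 4 groups of nuclei; genes that did not pass the filter on low counts have no point. All 8 points lie below 0 in the whole kidney, while in endothelium Naip2 is at -0.83 and Pycard at 0.60.

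Of 78 other genes of the pathway, taken from 6 lists of sensors, caspases, cytokines and receptors, priming factors, interferon-inducible partners and regulators, 75 were in the files and 72 were tested in the whole kidney. There 57 had a log2 change below 0, against 51.5% of all genes, with a median of -0.44 against -0.01 over all genes. In fibroblasts 32 of the 55 tested were below 0, against 49% of all genes (median -0.07), in endothelium 37 of 53, against 49.3% (median -0.14), in the immune group 39 of 55, against 50.8% (median -0.28), and in tubule 47 of 70, against 52.7% (median -0.18). The injured proximal tubule leaned the other way, with 15 of 43 below 0, against 52.2% of all genes (median 0.17), and the medians of the 7 remaining single classes lay between -0.28 and -0.04. The 34 immune markers summed to 395 and 401 CPM in the whole kidney in losartan, against 588 and 928 CPM in untreated libraries, with 0 at 0, and their part in these counts was not tested. The edgeR test called 0 of the listed genes in the whole kidney and in each of these groups. At an unadjusted p under 0.05 it held 34 of 72 in the whole kidney, against 21.9% of all genes, and 23 of 70 in tubule, against 20.1%. It held 5 of 55 in fibroblasts (8.7% of all genes), 2 of 53 in endothelium (5.52%) and 6 of 55 in the immune group (7.1%). With the 8 genes above included, DESeq2 called 16 of 80 in the whole kidney, against 8.81% of all genes, 13 of 78 in tubule, against 7.51%, and 0 in each of the other 3 groups.

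The listed genes with the smallest p were led by Nfkbiz, which encodes an atypical inhibitor of NF-kappaB that acts in the nucleus. In tubule Nfkbiz had 47.5 and 45.4 CPM in losartan, against 74.8 and 76.1 CPM in untreated libraries (log2 change -0.70 ± 0.0818, edgeR adjusted p = 0.0928). Its losartan libraries were also lower in endothelium, at 52.6 and 53.7 CPM against 77.4 and 75.5 CPM. Casp12, the neighbour of Casp4, had 1.42 and 1.26 CPM in tubule in losartan, against 3.10 and 4.09 CPM in untreated libraries (log2 change -1.42 ± 0.25, edgeR adjusted p = 0.100). In fibroblasts Casp12 had 42.4 and 50.6 CPM in losartan, against 58.7 and 71.9 CPM in untreated libraries (log2 change -0.48 ± 0.183). In fibroblasts the smallest p-values were those of Nlrc5 (log2 change -1.30 ± 0.256, edgeR adjusted p = 0.1703), a transactivator of class I histocompatibility genes, Nod1, a sensor of bacterial cell walls, and Il1r1, the interleukin-1 receptor. In the whole kidney they were those of Nfkbiz (log2 change -0.58 ± 0.0919), the cytokine Tnf (-2.73 ± 0.471) and Nlrc5 (-1.10 ± 0.209).

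In the immune group the smallest p-values were those of Dfna5, which encodes gasdermin E, P2rx4, an ATP-gated channel, and Nlrc3, a negative regulator of innate signalling. Dfna5 had 87.9 and 103 CPM in losartan, against 50.7 and 27.3 CPM in untreated libraries (log2 change 1.34 ± 0.372, edgeR adjusted p = 0.687). P2rx4 had 113 and 121 CPM in losartan, against 187 and 196 CPM in untreated libraries (log2 change -0.72 ± 0.211). The mix of myeloid nuclei and lymphocytes in this group differed between libraries, and its part in these values was not tested. In endothelium the smallest p-values were those of Aim2, a sensor of cytosolic DNA (log2 change -1.60 ± 0.493, edgeR adjusted p = 0.793), Nfkbiz and Irak1, a kinase of toll-like receptor signalling.

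The genes whose levels over 16 classes most resembled each member were found by Pearson correlation of log2(mean CPM + 1) among 14401 genes, with no test. The classes share libraries and depth, and adipocytes came from 2 libraries only. For Casp4 the nearest was its neighbour Casp12 (r = 0.905 over 16 classes), followed by Mypopos and Map7d1. Nlrp1b lay closest to the macrophage marker Adgre1 (r = 0.977), then Clec12a, and Nlrp3 to Tlr13 (r = 0.930), Gm13710 and C3ar1. Naip2 resembled Cd38 (r = 0.954), Gm4955 and H2-T24. Casp1 resembled Cdh23 (r = 0.932), Ifnar1 and Dr1, and Gsdmd resembled Apaf1 (r = 0.890), H2-T23 and Ddx60. Il18 resembled Cers6 (r = 0.827), Dclre1c and Lipc, and Pycard resembled Xpo6 (r = 0.912), 2310035C23Rik and Strada.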

How the data were processed

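The deposited matrices hold UMI counts per gene and barcode for 2 losartan and 2 untreated libraries, made by the authors with Cell Ranger 5.0.0, per the file headers. The submitters' processing notes also name mm10 and Bowtie 0.12.2 without saying for which step. Whether counting used strand or introns is not given in the sources used here. Filters required 500 UMIs, 300 genes and no more than 10% mitochondrial UMIs (the lowest kept had 1839 UMIs), and 3242 Scrublet doublets and 510 nuclei above the mitochondrial limit, some of them both, were removed. The automatic doublet threshold was used in untreated library 1, and elsewhere, where it marked under 0.5%, the top doublet scores were taken out at a rate of 0.8% per 1000 barcodes. Clusters (scanpy 1.11.5, 30 components, 15 neighbours, Leiden resolution 1, seed 0) numbered 36. Of these, 32 clusters with 34761 nuclei were named from 25 marker sets as 16 classes, and 4 with 1174 nuclei stayed unnamed. The naming rule was revised after the clusters had been seen. Shares of nuclei with a UMI are set beside those of proximal tubule or fibroblast nuclei as background.

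Counts were summed per class and library and tested with edgeR 4.0.16 (quasi-likelihood, TMM, filterByExpr, Benjamini-Hochberg over all genes, threshold 0.05). DESeq2 1.42.0 was an alternative, as were other scaling, no filter, 500 against 1000 UMIs, Leiden 0.5, removal of the 10% of nuclei richest in other groups' markers, a replicate block and leaving out each library. Shares of genes called by DESeq2 are over all genes past the filter, and a missing adjusted p is no call. The edgeR script was tested on simulated data. The 8 genes, the pathway lists and the markers were chosen with earlier results of these data known. Genes were named as the 8 members, the 3 listed pathway genes with the smallest p in each group, and the 3 most alike genes of each member, of which 2 genes are not reported here. Casp12 outside the tubule was added because of its place beside Casp4. Software was R 4.3.3, limma 3.58.1 and Python 3.11.15.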

Additional observations from a re-analysis of the deposited data

Results flagged for a closer look

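The losartan difference of Naip2 in tubule minus that in endothelium was 1.25 on the log2 scale and passed the edgeR interaction test (adjusted p = 0.0164), with both losartan libraries above both untreated libraries in tubule and below both in endothelium. Differences of the same kind that were not tested were 1.44 for Naip2 in proximal tubule minus endothelium and 1.27 for Naip2 in thick ascending limb minus endothelium. For Gsdmd, injured proximal tubule minus fibroblasts gave 0.97, also not tested, and losartan library 1 held 2 Gsdmd UMIs in the injured proximal tubule. Within the proximal tubule, losartan libraries were above untreated ones for Naip2 in 1 of 8 clusters, below in 3 and overlapping in 4.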

How the results depend on the processing

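Of 509 alternative values of 47 log2 changes, 460 kept their direction and side of the threshold, 19 passed it where the reported value did not, and 30 changed sign. None of the 40 alternatives for class levels moved by more than the SD between libraries. Most of them left out 1 of the 4 libraries, which cannot move a mean that far, so they say nothing on stability. Thinning to 1000 UMIs moved 27 of 32 shares. DESeq2 called 3 of the 8 genes in the whole kidney, 1 in tubule and 1 in the single tubule classes and myeloid nuclei. Without the filter on low counts 1 was called in fibroblasts and 1 in endothelium, and without nuclei rich in other markers 1 in the single classes. Leaving out 1 library gave 0 to 1 in fibroblasts, endothelium and the single classes. It also gave 0 to 1 genes whose losartan difference differed between thick ascending limb and proximal tubule, and 0 between tubule and endothelium, where 1 was reported. For the pathway lists, DESeq2 called 16 in the whole kidney, 13 in tubule and 2 in the single classes. Without the filter 1 was called in immune nuclei, 3 in fibroblasts, 1 in endothelium, 1 in tubule and 4 in the single classes, and without nuclei rich in other markers 1 in the single classes. Leaving out 1 library gave 0 to 5 in immune nuclei, 0 to 2 in fibroblasts, 0 to 1 in endothelium and 0 to 13 in the single classes. The highest counts came without untreated library 1, where 13.2% of all genes were called in immune nuclei, 11.7% in myeloid nuclei and 6.43% in thick ascending limb. Of all genes, DESeq2 called 8.81% in the whole kidney, 7.51% in tubule, 0.974% in thick ascending limb and 2.09% in proximal tubule. Without the filter the shares were 2.17% in immune nuclei, 2.9% in fibroblasts, 0.919% in endothelium and 0.972% in tubule. They were 0.501% in injured proximal tubule and 1.34% in myeloid nuclei, the single classes with list calls. Without nuclei rich in other markers the share was 0.299% in thick ascending limb. The causes were not tested.

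No label says whether replicate numbers pair the libraries. Over genes, the difference between losartan libraries 1 and 2 correlated with that between untreated libraries 1 and 2 by 0.195 to 0.354. With only 2 pairs, these values cannot decide whether the libraries are paired. With the replicate block, 3 of the 8 genes were called in the whole kidney and 1 each in fibroblasts, endothelium, tubule and the single classes. The pathway calls with the block were 20 in the whole kidney, 3 in fibroblasts, 1 in endothelium, 13 in tubule and 6 in the single classes, all 6 in thick ascending limb. The block called 10.9% of all genes in the whole kidney, 4.23% in fibroblasts, 2.34% in endothelium, 8.21% in tubule and 7.05% in thick ascending limb.

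Leaving out 1 library changed the sign of log2 changes, with ranges of -0.46 to 0.30 for Casp1 in endothelium, -0.69 to 0.15 for Nlrp3 in immune nuclei, -0.42 to 0.78 for Nlrp3 and -0.34 to 0.51 for Nlrp1b in tubule, and -0.25 to 0.75 for Naip2 in fibroblasts. The ranges for Gsdmd were -0.0538 to 0.41 in immune nuclei, -0.61 to 0.0299 in endothelium and -0.27 to 0.11 in myeloid nuclei. Pycard ranged between -1.05 and 0.25 in immune nuclei, where the reported change was -0.60, and between -0.19 and 0.31 in distal convoluted tubule, Casp4 between -0.23 and 0.72 in injured proximal tubule, where it was 0.47, and Nlrp1b between -0.26 and 0.13 in myeloid nuclei. The difference for Naip2 ranged between -0.40 and 0.0159 for thick ascending limb minus proximal tubule and between -0.24 and 0.57 for tubule minus fibroblasts. Without nuclei rich in other markers the sign changed for Casp1 in endothelium (0.0213), Nlrp3 (-0.12) and Nlrp1b (-0.0264) in tubule, Naip2 in fibroblasts (-0.0691) and Pycard in distal convoluted tubule (-0.0124). At Leiden resolution 0.5 it changed for Casp1 in endothelium (0.0519), Nlrp1b in fibroblasts (0.19), tubule (-0.0758) and myeloid nuclei (0.39), and Gsdmd in tubule (0.11) and myeloid nuclei (0.17). The groups then held partly other nuclei. A cluster of 1060 nuclei that scored highest for injured proximal tubule stayed unnamed, so tubule lacked it, and no cluster was named lymphocyte. Without the small myeloid cluster Nlrp1b in myeloid nuclei was 0.16, an alternative chosen after seeing the data. The minimum of 1000 UMIs changed nothing by construction. With 2 libraries a group and few UMIs for Il18, Casp1 and Nlrp3, depth limits every statement on them.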
